A study of Homo sapiens with 8 samples.

Results

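Cyclins, the cyclin-dependent kinases (CDKs) they switch on, the E2F transcription factors and the pocket proteins that bind them were followed through a comparison of MOLM-14 cells carrying a hairpin against CD39 with MOLM-14 cells carrying a control hairpin. The 52 genes were taken from a list of symbols in the platform annotation, chosen with earlier results of these data known. Of these, 41 had a named probe set on the array, among 14884 genes named in all. The 11 listed genes without a named probe set were CDKN1B, CDKN1C, CDKN2B, CDKN2C, CDKN2D, CCNA1, SKP2, PKMYT1, E2F4, E2F5 and E2F6, and they were not analysed here. Only CCND2 had more than 1 named probe set, and the one with the highest mean over all arrays stood for the gene. MOLM-14 is an established human acute myeloid leukaemia line with monocytic features. CD39, encoded by ENTPD1, is a cell-surface enzyme that degrades extracellular ATP and ADP. The group labelled shCD39 carried an shRNA against ENTPD1, and the group labelled shCTRL carried a control shRNA. Both groups received doxycycline for 72 h, so the controls were also exposed to it, and neither group was left without the drug. Each group had 4 arrays, which the labels call technical replicates, so the p-values below measure the spread between these arrays. The RNA is described as coming from clones, without their number, and one label spells the line MOML14. All levels are log2 intensities, and a log2 fold change is the shCD39 mean minus the shCTRL mean.

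Cyclins rise and fall through the cell cycle and give their CDK partners activity and target choice. D-type cyclins with CDK4 or CDK6 start the phosphorylation of the retinoblastoma protein RB1 in G1, cyclin E and cyclin A with CDK2 carry cells into and through S phase, and cyclins A and B with CDK1 drive mitosis. RB1 holds the activating E2Fs in check, whereas its relatives p107 (RBL1) and p130 (RBL2) mainly bind the repressing E2Fs. With the MuvB core, which contains LIN9 and LIN54, p130 or p107 forms the repressive DREAM complex, and in cycling cells MuvB instead binds B-MYB (MYBL2) and then FOXM1 to turn on the genes of late S phase and G2/M. Acute leukaemias with KMT2A fusions, the class MOLM-14 belongs to, are known to depend on CDK6.

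The targeted gene was dim, with a mean close to the array medians. ENTPD1 measured 2.42, 2.14, 2.72 and 2.95 on shCD39 arrays 1 to 4, against 3.16, 2.88, 3.21 and 4.12 on shCTRL arrays 1 to 4. Its mean was lower in shCD39 cells by -0.79 ± 0.25 on the log2 scale (SE), the groups overlapped, and the limma adjusted p was 0.178 (exact permutation p = 0.0571, n = 4 each). Array medians ran from 3.128 to 3.175 and the correlation between arrays over all probe sets from 0.9742 to 0.9871, with no identical pair. Over named genes, shCD39 array 4 had a mean correlation of 0.985 with the other shCD39 arrays and 0.989 with the shCTRL arrays, so it stood nearer to the controls. Results that rest on it are given with and without it. Of 12 myeloid markers 8 were measured, with FLT3 at 9.38 in shCD39 cells and 9.66 in shCTRL cells, CD68 at 9.19 and 9.11, and SPI1 at 7.25 and 7.12. LYZ (lysozyme) and CSF1R (a growth factor receptor), both of maturing monocytes, had higher means with no overlap between groups, and shCD39 array 4 was again the array nearest to the controls. LYZ measured 10.10, 10.18, 10.63 and 9.25 on shCD39 arrays, against 8.72, 8.99, 9.13 and 9.07 on shCTRL arrays (log2 fold change 1.07, limma adjusted p = 0.093), and CSF1R measured 5.67, 6.72, 6.29 and 5.11 against 4.24, 4.76, 4.82 and 4.53 (1.36, limma adjusted p = 0.085). The other measured myeloid markers overlapped between groups, with MPO (myeloperoxidase) at -0.40 on the log2 scale, FLT3 at -0.29, KIT at 0.30 and the monocyte marker CD14 at 0.09. The mean level over the 8 myeloid markers ran from 6.62 to 7.09 on shCD39 arrays and from 6.37 to 6.62 on shCTRL arrays. The markers of other lineages gave 5.24 to 5.58 against 4.91 to 5.43 for 2 of 8 T, NK and B cell genes, 4.12 to 4.48 against 4.20 to 4.24 for 3 of 6 erythroid and megakaryocyte genes, and 4.05 to 4.14 against 3.89 to 4.04 for 4 of 7 epithelial and fibroblast genes. Within the T, NK and B cell genes, NKG7 had a higher mean without overlap, 6.48 in shCD39 cells and 5.98 in shCTRL cells (log2 fold change 0.50, limma adjusted p = 0.131). The part of these markers in the results below was not tested.

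Many genes of the late cell cycle carry an E2F site or a CHR element in their promoter, the sites that E2F and MuvB complexes bind. The stretches printed here belong to members whose shCD39 mean was lower at an unadjusted limma p under 0.05, and they were picked, like the motifs, after the values were seen. They end at the base before the RefSeq transcription start on GRCh38.p14 and are written 5′ to 3′ on the strand of the gene, with capitals marking a searched E2F or CHR word. RBL1, E2F1, E2F2 and CDC25A are shown for their E2F words, CCNB2, CKS1B and CKS2 for a CHR word, CDK1 for both, and MYBL2 because it had the lowest log2 fold change and holds none of these words. Only exact words were searched, so a stretch without them can still hold an E2F site or a CHR element of other letters.
RBL1, chr20:37095998-37096057, minus strand: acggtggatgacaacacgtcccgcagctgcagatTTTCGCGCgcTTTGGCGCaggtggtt
E2F1, chr20:33686386-33686445, minus strand: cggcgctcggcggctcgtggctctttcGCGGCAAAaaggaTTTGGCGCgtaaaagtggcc
E2F2, chr1:23531234-23531293, minus strand: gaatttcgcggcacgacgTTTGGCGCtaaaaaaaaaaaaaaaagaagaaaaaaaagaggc
CDC25A, chr3:48188418-48188477, minus strand: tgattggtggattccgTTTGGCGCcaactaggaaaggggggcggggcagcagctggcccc
CCNB2, chr15:59105046-59105145, plus strand: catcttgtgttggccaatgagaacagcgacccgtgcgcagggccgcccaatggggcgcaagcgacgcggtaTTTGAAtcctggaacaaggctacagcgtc
CKS1B, chr1:154974581-154974680, plus strand: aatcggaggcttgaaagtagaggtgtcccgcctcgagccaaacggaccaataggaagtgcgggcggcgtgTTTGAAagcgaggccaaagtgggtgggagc
CKS2, chr9:89311095-89311194, plus strand: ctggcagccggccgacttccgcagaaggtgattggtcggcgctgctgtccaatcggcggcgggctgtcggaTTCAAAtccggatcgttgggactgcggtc
CDK1 at its second listed start, chr10:60778338-60778477, plus strand: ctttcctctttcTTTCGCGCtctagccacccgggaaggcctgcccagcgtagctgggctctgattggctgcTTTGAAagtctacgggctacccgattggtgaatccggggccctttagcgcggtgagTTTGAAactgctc
MYBL2, chr20:43667014-43667113, plus strand: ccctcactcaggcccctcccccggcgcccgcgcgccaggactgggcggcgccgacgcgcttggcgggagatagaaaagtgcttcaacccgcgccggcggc
RBL1 carries TTTCGCGC and TTTGGCGC within 60 bases of its start, E2F1 a TTTGGCGC and, read from the opposite strand, a TTTGCCGC. CCNB2 and CKS1B each carry TTTGAA, CKS2 carries it on the opposite strand, and the CDK1 stretch holds TTTCGCGC with a pair of TTTGAA words downstream.

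The search covered both strands of the window from 250 bases before to 50 bases after each start, in 35116 windows of 27305 genes. Of the measured members, 34 had an entry, with 54 windows, and CCND1, CCND2, CDK2, CCNE2, E2F8, FOXM1 and WEE1 had none. An E2F word (TTTCGCGC, TTTGGCGC, TTTCCCGC or TTTGCCGC) was found in 8 of the 54 member windows, or 14.8%, against 3.31% of all windows. The CHR word TTTGAA was found in 17 member windows, or 31.5%, against 15.2% of all windows, and CCAAT in 22, or 40.7%, against 34.6%. In windows of protein-coding genes alone, the shares were 4.1% for an E2F word, 12.4% for TTTGAA and 34.7% for CCAAT. Among the members with a lower mean at an unadjusted p under 0.05, 6 of 27 windows held an E2F word and 11 held TTTGAA. Among the other members these numbers were 2 and 6 of 27 windows. By gene they were 5 and 8 of 17 against 2 and 5 of 17, and the difference was not tested. The members without overlap between the groups, named below, had an E2F word in 1 of 11 windows (9.09%), TTTGAA in 2 (18.2%) and CCAAT in 3 (27.3%). A match describes the letters only, and windows of one gene can overlap.

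Across the 41 measured genes, means were lower in shCD39 cells for 33 and higher for 8, and none passed the adjusted threshold with all 8 arrays. The median log2 fold change of the members was -0.33, against 0.01 over all 14884 genes, of which 48% were below 0. At a Benjamini-Hochberg adjusted p under 0.05 in limma, 0 members were called, against 14 genes in all or 0.0941% (0.047% in each direction). At an unadjusted p under 0.05, 20 members were lower and 1 was higher, against a background of 8.13% of all genes lower and 6.54% higher (14.7% in either direction). In 7 members, all lower, no shCD39 array overlapped the shCTRL arrays, against 4.23% of all genes lower and 3.61% higher without overlap. These 7 were MYBL2, RBL1, CKS1B, LIN9, CDK2, CDK4 and CDC25B. Because the members were chosen with earlier results of these data known, the counts and the median describe them and do not test them as a set. The RNA came from whole cultures, in which fewer cells in a cycle phase and less RNA per cell cannot be told apart.

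**Figure D1:**
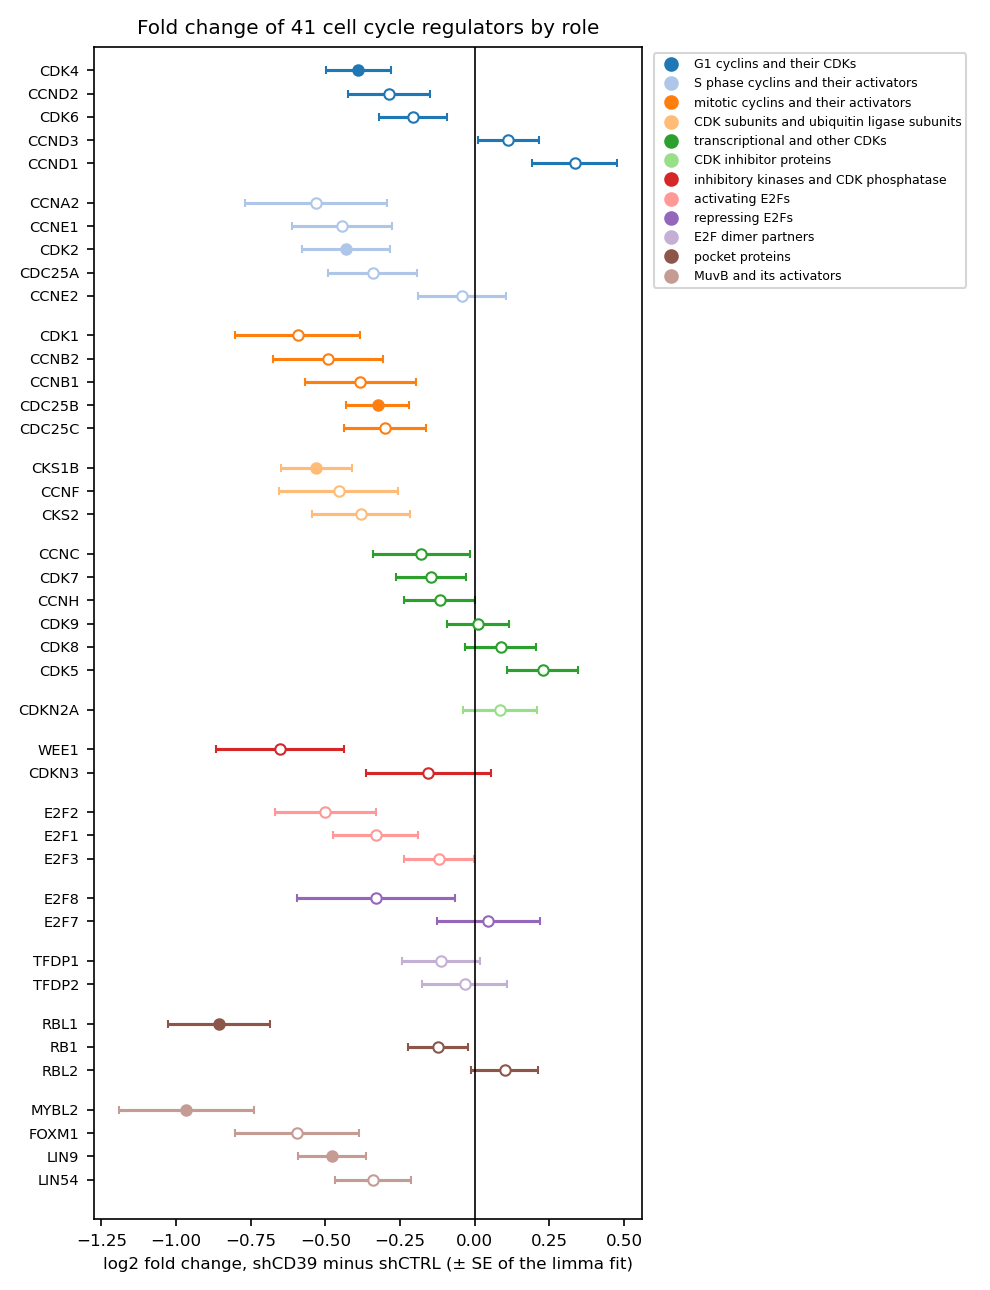
Log2 fold change of shCD39 over shCTRL cells for the 41 measured genes, grouped by role, with bars of 1 SE from the limma fit (4 arrays each). Filled points mark the 7 genes whose groups do not overlap, all left of 0, and the lowest is MYBL2 at -0.97.

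By role, the lowest median of the log2 fold change was that of MuvB and its activators, here LIN9, LIN54, MYBL2 and FOXM1 (-0.54, 4 of 4 lower). Next came the Cks proteins with cyclin F (-0.46, 3 of 3) and the S phase group (-0.43, 5 of 5). WEE1 with CDKN3 (-0.40, 2 of 2) and the mitotic group (-0.38, 5 of 5) came after them. The activating E2Fs followed at -0.33, with 3 of 3 lower. G1 cyclins and their kinases had a median of -0.21 with 3 of 5 lower, and the transcriptional and other CDKs one of -0.05 with 3 of 6 lower. For scale, the group of 5 mitotic genes spanned -0.59 to -0.30 and the group of 6 transcriptional genes -0.18 to 0.23. The remaining roles, with 1 to 3 measured genes each, are described by gene below.

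Among the G1 genes, CDK4 had the clearest separation and cyclin D1 was the only member with a higher mean at an unadjusted p under 0.05. CDK4, the kinase partner of the D cyclins, measured 9.29, 8.91, 9.12 and 9.18 on shCD39 arrays, against 9.55, 9.56, 9.45 and 9.50 on shCTRL arrays. All shCD39 arrays lay below all shCTRL arrays, and the means were 9.13 ± 0.16 and 9.52 ± 0.05 (SD, n = 4 each). The log2 fold change was -0.39 ± 0.11 (SE), with a limma adjusted p of 0.144 and an exact permutation p of 0.0286, the smallest that 4 against 4 arrays allow. CCND1, encoding cyclin D1, measured 5.42, 5.10, 5.71 and 5.13 on shCD39 arrays, against 4.94, 4.92, 5.01 and 5.14 on shCTRL arrays. Arrays 1 and 3 of the shCD39 group lay above every control, and arrays 2 and 4 lay below shCTRL array 4. Its log2 fold change was 0.33 ± 0.14 (SE), with a limma adjusted p of 0.301 (exact permutation p = 0.0857), and it became 0.21 without shCD39 array 3. CCND2, encoding cyclin D2, averaged 8.01 ± 0.28 in shCD39 cells and 8.30 ± 0.04 in shCTRL cells (SD, n = 4 each), a log2 fold change of -0.29 with a limma adjusted p of 0.366. The wide shCD39 spread of CCND2 ran from 7.70 on array 2 to 8.30 on array 3, so it reached into the control range. Without array 2 its value became -0.18. The other CCND2 probe set, which was dimmer, gave 0.06, and the mean of both gave -0.12. CDK6, the alternative partner of the D cyclins, gave -0.21 ± 0.11 (log2 fold change and SE, limma adjusted p = 0.439), and CCND3, encoding cyclin D3, one of 0.11 ± 0.10 (SE, limma adjusted p = 0.679).

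In the S phase group all 5 measured genes had lower means in shCD39 cells, with CDK2 the one without overlap. CDK2, the partner of cyclins E and A, measured 7.21, 6.75, 6.67 and 7.22 on shCD39 arrays, against 7.37, 7.43, 7.22 and 7.56 on shCTRL arrays. The highest shCD39 array and the lowest shCTRL array both round to 7.22, and no array crossed. The log2 fold change was -0.43 ± 0.15 (SE), with a limma adjusted p of 0.206 (exact permutation p = 0.0286). CCNA2, encoding cyclin A2, which serves S phase with CDK2 and mitotic entry with CDK1, measured 8.09, 8.40, 7.60 and 8.96 on shCD39 arrays, against 8.62, 8.83, 8.64 and 9.09 on shCTRL arrays. Array 4 of the shCD39 group lay within the control values and array 3 was the lowest, and the log2 fold change, -0.53 ± 0.24 (SE, limma adjusted p = 0.329), became -0.31 without array 3. CDC25A, the phosphatase that removes the inhibitory phosphates from CDK2 and CDK1, measured 5.73, 5.83, 5.77 and 6.39 on shCD39 arrays, against 6.22, 6.30, 6.16 and 6.41 on shCTRL arrays. Its shCD39 arrays 1 to 3 sat together below every control and array 4 sat among them, and the log2 fold change came to -0.34 ± 0.15 (SE, limma adjusted p = 0.318).

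The E cyclins open S phase with CDK2. CCNE1 measured 5.92, 5.51, 6.21 and 6.28 on shCD39 arrays, against 6.24, 6.51, 6.31 and 6.61 on shCTRL arrays. Only array 4 reached above the lowest control, and the log2 fold change was -0.44 ± 0.17 (SE, limma adjusted p = 0.244), or -0.29 without shCD39 array 2. CCNE2 measured 6.24, 6.08, 6.04 and 6.67 on shCD39 arrays, against 6.21, 6.29, 6.19 and 6.50 on shCTRL arrays. Here shCD39 array 4 was the highest of all 8 arrays, and the log2 fold change, -0.04 ± 0.15 (SE, limma adjusted p = 0.934), changed sign under quantile normalization (0.023) and cyclic loess (0.019). The change of CCNE1 relative to CCNE2 was -0.40 on the log2 scale, with an exact permutation p of 0.114.

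All 5 genes of the mitotic group had lower means in shCD39 cells. CDK1, the kinase that triggers mitosis, measured 6.46, 6.35, 6.29 and 7.23 on shCD39 arrays, against 7.01, 7.28, 6.88 and 7.53 on shCTRL arrays. Arrays 1 to 3 of the shCD39 group lay below every control and array 4 within them. The log2 fold change was -0.59 ± 0.21 (SE), with a limma adjusted p of 0.219 (exact permutation p = 0.0857). CCNB2, encoding cyclin B2, measured 6.35, 6.40, 6.04 and 6.97 on shCD39 arrays, against 6.89, 7.06, 6.65 and 7.13 on shCTRL arrays. The pattern matched that of CDK1, with array 4 among the controls, and the log2 fold change was -0.49 ± 0.18 (SE, limma adjusted p = 0.242). CCNB1, encoding cyclin B1, the main mitotic cyclin, averaged 6.66 ± 0.35 in shCD39 cells and 7.04 ± 0.29 in shCTRL cells (SD, n = 4 each), a log2 fold change of -0.38 with a limma adjusted p of 0.371. Leaving out shCD39 array 3 gave -0.25 and leaving out shCTRL array 4 gave -0.24.

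The CDC25 phosphatases of G2/M remove the inhibitory phosphates that WEE1 places on CDK1. CDC25B measured 6.09, 5.88, 5.85 and 5.86 on shCD39 arrays, against 6.10, 6.33, 6.23 and 6.31 on shCTRL arrays. Arrays 2 to 4 of the shCD39 group lay close together and array 1 stood just under the lowest control, and the log2 fold change was -0.33 ± 0.11 (SE) without overlap, with a limma adjusted p of 0.193 (exact permutation p = 0.0286). CDC25C measured 5.10, 5.10, 5.19 and 5.63 on shCD39 arrays, against 5.51, 5.51, 5.46 and 5.73 on shCTRL arrays. Its array 4 again sat among the controls, and the log2 fold change was -0.30 ± 0.14 (SE, limma adjusted p = 0.339). WEE1, the kinase that holds CDK1 and CDK2 inactive, measured 6.69, 6.72, 6.14 and 7.43 on shCD39 arrays, against 7.48, 7.38, 7.26 and 7.46 on shCTRL arrays. The inhibitory kinase had a lower mean together with the CDKs it restrains, by -0.65 ± 0.21 on the log2 scale (SE, limma adjusted p = 0.195, exact permutation p = 0.0857).

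All 3 measured genes of CDK subunits and ubiquitin ligase subunits had lower means in shCD39 cells. CKS1B, a small CDK subunit that also helps the SKP2 ubiquitin ligase recognise p27, measured 6.57, 6.22, 6.25 and 6.50 on shCD39 arrays, against 6.92, 6.90, 7.07 and 6.79 on shCTRL arrays. All 4 shCD39 arrays lay below the controls, with means of 6.39 ± 0.18 and 6.92 ± 0.12 (SD, n = 4 each). The log2 fold change was -0.53 ± 0.12 (SE), with a limma adjusted p of 0.0933 (exact permutation p = 0.0286). CKS2, its paralogue, measured 8.15, 7.99, 7.85 and 7.37 on shCD39 arrays, against 8.21, 8.44, 8.24 and 8.002 on shCTRL arrays. CKS2 was one of 5 members that were lowest on array 4 among the shCD39 arrays, and its log2 fold change, -0.38 ± 0.16 (SE, limma adjusted p = 0.313), became -0.22 without that array. CCNF, encoding cyclin F, which is a substrate receptor of an SCF ubiquitin ligase, measured 6.68, 5.94, 5.97 and 6.50 on shCD39 arrays, against 6.42, 6.87, 6.51 and 7.11 on shCTRL arrays. Arrays 2 and 3 lay below all controls and arrays 1 and 4 above the lowest of them, and the log2 fold change came to -0.46 ± 0.20 (SE, limma adjusted p = 0.319).

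**Figure D2:**
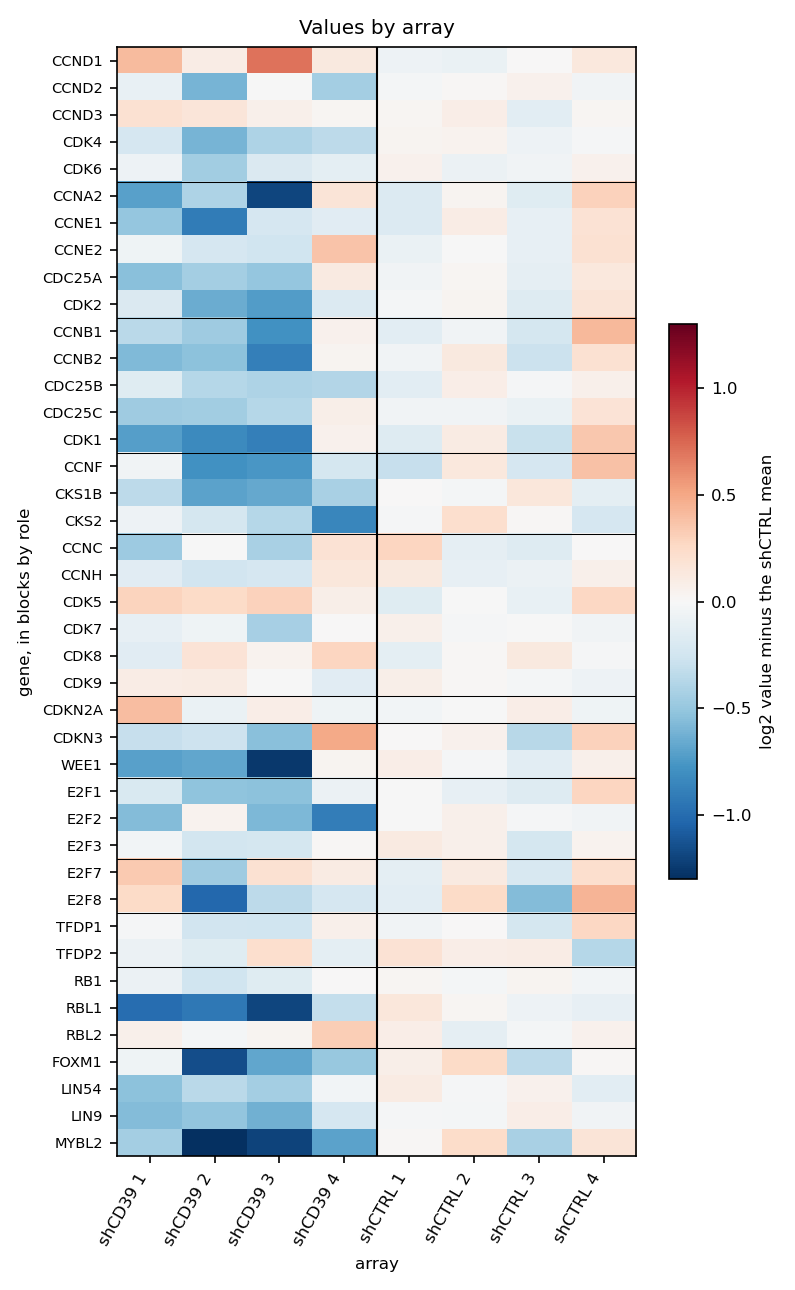
Deviation of each array from the shCTRL mean of the gene (log2), with shCD39 arrays 1 to 4 on the left, shCTRL arrays 1 to 4 on the right, and genes in blocks by role. Columns shCD39 2 and 3 have 31 and 29 of 41 genes below the control range, and column shCD39 4 has 13.

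The CDKs that work mainly in transcription or outside the cycle had small differences, none at an unadjusted p under 0.05. CDK5, a kinase best known from neurons, had the highest log2 fold change of this group, 0.23 ± 0.12 (SE, limma adjusted p = 0.419). It measured 6.83, 6.79, 6.84 and 6.62 on shCD39 arrays, against 6.38, 6.53, 6.44 and 6.81 on shCTRL arrays, where shCTRL array 4 was the one that overlapped. CCNC, encoding the cyclin of the Mediator kinase CDK8, had the lowest, -0.18 ± 0.16 (SE, limma adjusted p = 0.676), from 4.51, 4.97, 4.55 and 5.16 on shCD39 arrays, against 5.26, 4.86, 4.81 and 4.98 on shCTRL arrays. CDK7 and CCNH, the kinase and cyclin of the CDK-activating complex, had log2 fold changes of -0.15 and -0.12. CDK8 and CDK9, which act on Mediator and on elongating RNA polymerase II, had 0.09 and 0.01.

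Of the CDK inhibitor proteins only CDKN2A could be read, and it was dim. CDKN2A, which encodes p16 and p14ARF, measured 3.48, 2.99, 3.16 and 3.02 on shCD39 arrays, against 3.05, 3.07, 3.16 and 3.02 on shCTRL arrays, near the array medians. Array 1 alone stood apart, and without it the log2 fold change, 0.09 ± 0.12 (SE, limma adjusted p = 0.811), became -0.02. CDKN3, a phosphatase that removes the activating phosphate from CDK2 and CDK1, measured 6.59, 6.62, 6.35 and 7.38 on shCD39 arrays, against 6.89, 6.95, 6.53 and 7.19 on shCTRL arrays. Its shCD39 array 4 was the highest of all 8 arrays, and the log2 fold change was -0.16 with all arrays (limma adjusted p = 0.795) and -0.37 without that array.

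Among the E2Fs, the means of the 3 activators and of the repressor E2F8 were lower in shCD39 cells, and that of the repressor E2F7 was slightly higher. The groups overlapped in all 5, and the classes were not tested against each other. E2F1, which drives the genes of DNA replication once RB1 lets it go, measured 5.88, 5.57, 5.56 and 6.01 on shCD39 arrays, against 6.08, 5.98, 5.92 and 6.37 on shCTRL arrays. E2F2 measured 4.96, 5.57, 4.94 and 4.63 on shCD39 arrays, against 5.52, 5.60, 5.52 and 5.48 on shCTRL arrays. For E2F1 array 4 reached into the controls, and for E2F2 array 2 did while array 4 was the lowest of all. Their log2 fold changes were -0.33 ± 0.14 for E2F1 (SE, limma adjusted p = 0.306) and -0.50 ± 0.17 for E2F2 (SE, limma adjusted p = 0.202). E2F3 measured 6.65, 6.45, 6.46 and 6.70 on shCD39 arrays, against 6.81, 6.75, 6.45 and 6.73 on shCTRL arrays, and its log2 fold change was -0.12 (limma adjusted p = 0.699). E2F7 and E2F8 are atypical E2Fs that shut the E2F genes off again late in S phase. E2F7 measured 6.71, 5.91, 6.58 and 6.48 on shCD39 arrays, against 6.25, 6.49, 6.17 and 6.59 on shCTRL arrays (log2 fold change 0.05, limma adjusted p = 0.939). E2F8 measured 7.59, 6.31, 6.99 and 7.11 on shCD39 arrays, against 7.20, 7.58, 6.77 and 7.78 on shCTRL arrays (log2 fold change -0.33, limma adjusted p = 0.617). For both repressors shCD39 array 2 was the lowest and array 1 the highest of its group, and without array 2 the E2F8 value became -0.10.

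The dimer partners, which E2F1 to E2F6 need to bind DNA, had small differences. TFDP1 measured 7.25, 7.02, 7.01 and 7.33 on shCD39 arrays, against 7.22, 7.27, 7.04 and 7.53 on shCTRL arrays (log2 fold change -0.11, limma adjusted p = 0.752). TFDP2 measured 4.91, 4.83, 5.20 and 4.86 on shCD39 arrays, against 5.18, 5.08, 5.08 and 4.61 on shCTRL arrays (log2 fold change -0.03, limma adjusted p = 0.947). The sign for TFDP2 turned under quantile normalization (0.0076), so no direction was read from it.

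Of the 3 pocket proteins, RBL1 had the lowest adjusted p of all 41 members. RBL1, encoding p107, measured 6.87, 6.94, 6.67 and 7.55 on shCD39 arrays, against 8.01, 7.89, 7.80 and 7.75 on shCTRL arrays. No array overlapped, and even array 4, the highest shCD39 value, stayed below the lowest control. The means were 7.01 ± 0.38 and 7.86 ± 0.11 (SD, n = 4 each), a log2 fold change of -0.86 ± 0.17 (SE) or 1.81-fold lower, with a limma adjusted p of 0.0788 (exact permutation p = 0.0286). RBL2, encoding p130, the pocket protein of resting cells, measured 8.25, 8.16, 8.22 and 8.51 on shCD39 arrays, against 8.28, 8.06, 8.16 and 8.24 on shCTRL arrays. Its groups overlapped, and its log2 fold change came to 0.10 ± 0.11 (SE, limma adjusted p = 0.739). RB1 averaged 9.29 ± 0.11 in shCD39 cells and 9.42 ± 0.04 in shCTRL cells (SD, n = 4 each), a log2 fold change of -0.12 with a limma adjusted p of 0.633. Relative to RBL2 on the same arrays, RBL1 was lower in shCD39 cells by a log2 ratio change of -0.96, and RB1 relative to RBL1 was higher by 0.73. Both ratios separated all shCD39 arrays from all shCTRL arrays.

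These ratios belonged to 18 pairs of paralogues compared within arrays, a set chosen after the values were seen. Besides the 3 pocket protein pairs (RB1 relative to RBL2 changed by -0.22), 2 pairs separated the groups without overlap. CCND1 relative to the brighter CCND2 probe set was higher in shCD39 cells by 0.62 on the log2 scale, and CDK4 relative to CDK6 was lower, by -0.18. The log2 fold change was -0.29 for the brighter CCND2 set and 0.06 for the dimmer one, which was not used for this pair. Each of the 5 pairs had an exact permutation p of 0.0286, the smallest possible, and a Benjamini-Hochberg value of 0.103 over the 18 pairs, so none passed 0.05. The other pairs overlapped. CDC25A relative to CDC25B changed by -0.02 (exact permutation p = 0.886), and E2F1 relative to E2F3 by -0.21 (exact permutation p = 0.114).

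MuvB and the transcription factors that activate it, as listed here, had the lowest median log2 fold change of the roles, and MYBL2 the lowest value of any member. The MuvB subunits LIN37, RBBP4 and LIN52 were outside this role, at -0.24, -0.22 and 0.22, so its rank depends on which subunits were listed. MYBL2, encoding B-MYB, measured 7.76, 6.66, 6.998 and 7.51 on shCD39 arrays, against 8.21, 8.43, 7.78 and 8.37 on shCTRL arrays. The highest shCD39 array lay just below the lowest shCTRL array, array 3, and the others were further apart. Its means of 7.23 ± 0.49 and 8.20 ± 0.29 (SD, n = 4 each) differed by -0.97 ± 0.23 on the log2 scale (SE) or 1.95-fold, with a limma adjusted p of 0.100 (exact permutation p = 0.0286). FOXM1, which follows B-MYB on the same promoters, measured 6.79, 5.70, 6.18 and 6.36 on shCD39 arrays, against 6.93, 7.10, 6.51 and 6.87 on shCTRL arrays. Only array 1 reached above the lowest control, and the log2 fold change was -0.59 ± 0.21 (SE, limma adjusted p = 0.215, exact permutation p = 0.0571). LIN9, a scaffold subunit of MuvB, measured 6.003, 6.05, 5.94 and 6.35 on shCD39 arrays, against 6.55, 6.54, 6.65 and 6.52 on shCTRL arrays. The groups did not overlap, and the log2 fold change was -0.48 ± 0.11 (SE, limma adjusted p = 0.103, exact permutation p = 0.0286). LIN54, the subunit that binds the CHR element, measured 5.22, 5.40, 5.31 and 5.72 on shCD39 arrays, against 5.86, 5.73, 5.80 and 5.61 on shCTRL arrays. Here array 4 passed the lowest control, and the log2 fold change was -0.34 ± 0.13 (SE, limma adjusted p = 0.237).

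**Figure D3:**
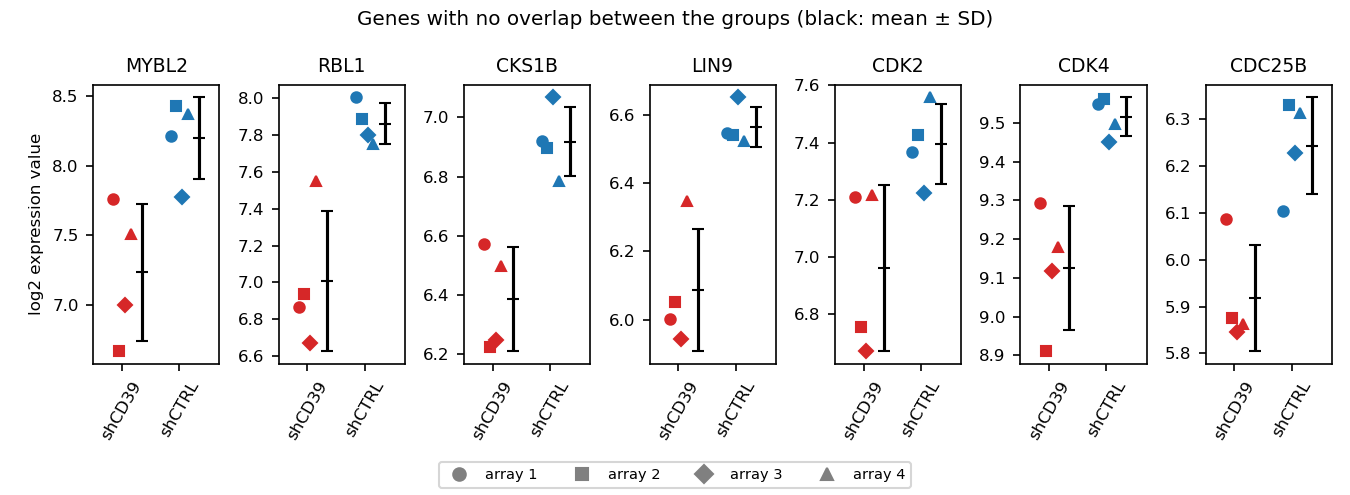
Log2 intensity of the 7 members whose groups do not overlap, with 1 point per array, shCD39 left of shCTRL for each gene, and black bars for the mean ± SD (n = 4 each). In RBL1 and LIN9 a single shCD39 point, array 4, stands nearer to the controls than the other 3.

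The shCD39 arrays were less alike in these genes than the controls were. The SD was larger among shCD39 arrays for 36 of 41 members, or 87.8%, against 62.7% of all genes, and the median SD of the members was 0.28 in shCD39 cells and 0.12 in shCTRL cells. On shCD39 arrays 1, 2, 3 and 4, 24, 31, 29 and 13 members lay below the whole shCTRL range, while 26.3%, 25.5%, 28% and 22.8% of all genes did. Array 4 was the highest of the shCD39 arrays for 23 of the 41 members, against 27.1% of all genes. The mean deviation from the shCTRL mean over the S phase genes was -0.40, -0.52, -0.58 and 0.07 on shCD39 arrays 1 to 4. Over the mitotic genes it was -0.45, -0.53, -0.66 and -0.03, so the mean on array 4 was at the control level for both groups. Single genes differed, with CDK2 at -0.18 and CDC25B at -0.38 below every control on array 4, and CCNE2 at 0.37 above every control. The MuvB genes had -0.40, -0.89, -0.73 and -0.36, so there array 4 kept a lower mean. The activating E2Fs had -0.27, -0.24, -0.45 and -0.32, but on array 4 this came from E2F2 at -0.89, with E2F1 at -0.08 and E2F3 at 0.01. Control arrays also varied, with the mitotic genes at -0.11, 0.04, -0.18 and 0.24 on shCTRL arrays 1 to 4.

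**Figure D4:**
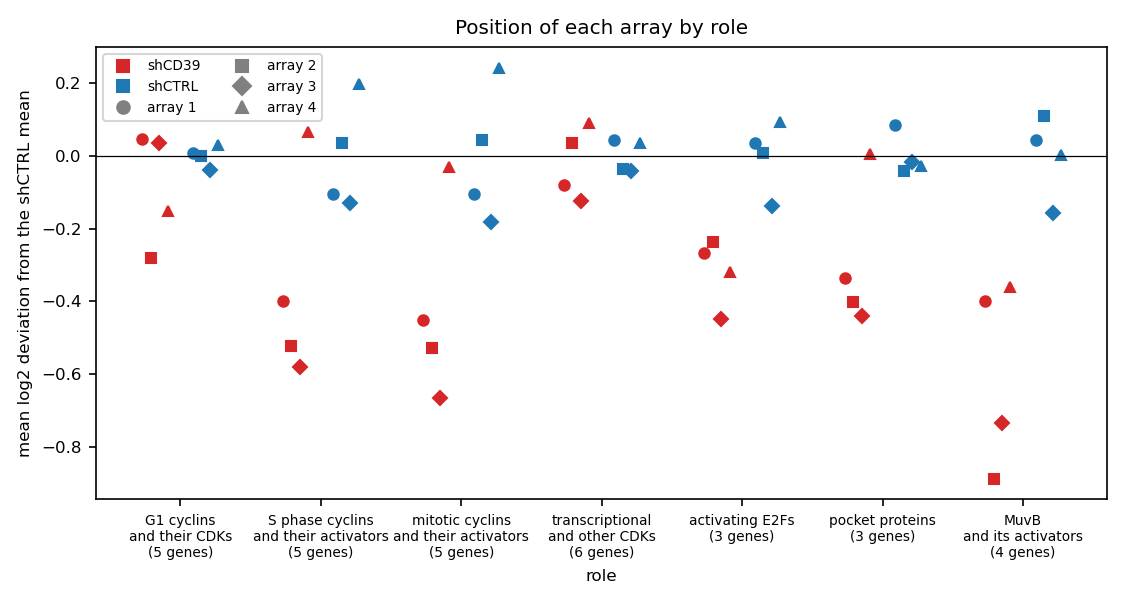
Mean deviation from the shCTRL mean (log2) over the genes of 7 roles, on shCD39 arrays 1 to 4 and then shCTRL arrays 1 to 4. On shCD39 array 4 the S phase and mitotic groups lie at 0.07 and -0.03, and the MuvB group at -0.36.

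With shCD39 array 4 left out, 8 members passed the adjusted threshold, all lower in shCD39 cells, against 2.1% of all genes lower and 0.746% higher in that fit (312 genes lower). They were RBL1 at -1.04 ± 0.12 (SE, limma adjusted p = 0.00456), MYBL2 at -1.06 ± 0.24 (limma adjusted p = 0.0479), WEE1 at -0.88 ± 0.15 (limma adjusted p = 0.0174) and CDK1 at -0.81 ± 0.16 (limma adjusted p = 0.0242). The others were CCNB2 at -0.67, CKS1B at -0.57, LIN9 at -0.56 and CDC25A at -0.49, with limma adjusted p values of 0.0412, 0.0425, 0.0206 and 0.0412. These genes include CDK1, cyclin B2, WEE1 and the phosphatase CDC25A. In the same fit CCNB1, CDC25B and CDC25C did not pass, with limma adjusted p values of 0.122, 0.181 and 0.0685. Leaving out any other single array called 0 members. Array 4 was picked from these same values, as the shCD39 array nearest to the controls. Leaving out such an array lowers the shCD39 mean of genes that are high on it and narrows their spread. The p values of this fit are therefore no separate support. When every array was kept and weighted by how closely it followed its group, 1 member passed, against 0.585% of all genes lower. It was RBL1 at -0.90 ± 0.15 (SE, limma adjusted p = 0.0350). The weights were estimated from these same arrays, so this fit is no separate support either. LYZ and CSF1R also passed in both of these fits.

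**Figure D5:**
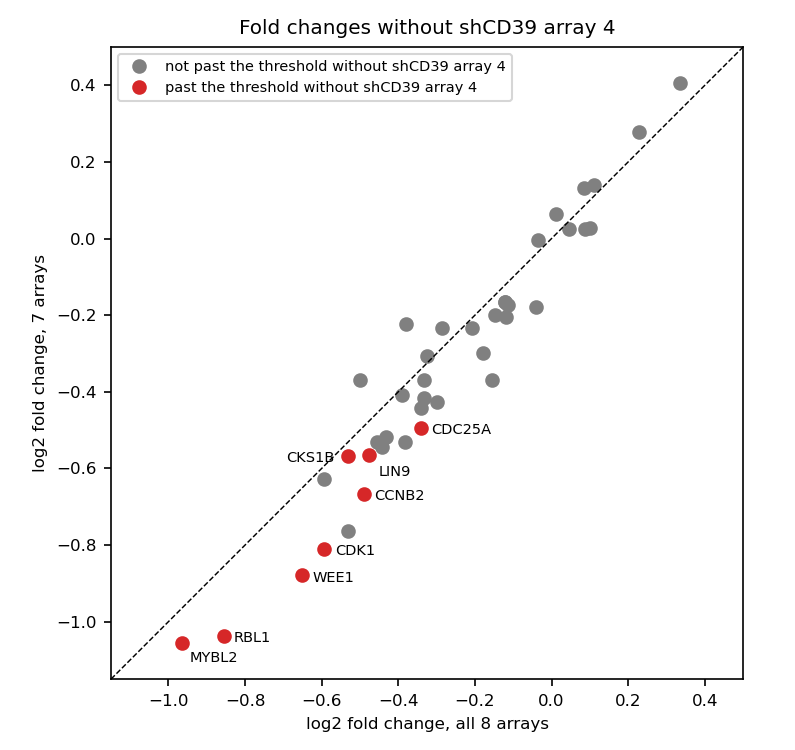
Log2 fold change of each member with all 8 arrays (horizontal axis) against that with shCD39 array 4 left out (vertical axis). The 8 labelled genes, past the threshold with 7 arrays, lie below the diagonal, and CKS2 lies above it, at -0.38 with all arrays and -0.22 without array 4.

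Further genes of the same pathway were read from 2 other lists. Of 27 other cyclins, CDKs and their partners 24 were measured, with 14 lower, 10 higher and none past the adjusted threshold, at a median log2 fold change of -0.06. CCNG2, encoding cyclin G2, a cyclin linked to cell cycle arrest, had the highest value, 0.27, and CABLES1, which links CDKs to inhibitory tyrosine kinases, the lowest, -0.35 (limma adjusted p = 0.163). Of 25 genes of MuvB, DREAM and cyclin turnover 22 were measured, with 16 lower, 6 higher and none past the threshold, at a median of -0.21. FBXO5, encoding the inhibitor EMI1 of the anaphase-promoting complex, had the lowest value of that list, -0.49 ± 0.24 (SE, limma adjusted p = 0.381), and it passed without shCD39 array 4. LIN52, another MuvB subunit, had the highest, 0.22. The groups overlapped for both FBXO5 and LIN52. In 3 of the 22, SKP1, ANAPC5 and RBBP4, all shCD39 arrays lay below all shCTRL arrays, against 4.23% of all genes. SKP1 and LIN52 were dim, with means of 3.31 and 3.24.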

How the data were processed

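The deposited values are log2 expression values, one column per array for 53617 probe sets; per the submitters' processing notes the authors used RMA, which corrects background, normalizes by quantiles and summarises probes, in the oligo package. Their versions, the array model and the build were not given in the sources used. Biotin-labelled cRNA made from total RNA was hybridized, per the labels' protocols. Probe sets were named from the platform annotation (16098 named, 37519 unnamed and not used), with symbols checked against RefSeq GRCh38.p14 by Entrez ID. Where a gene had several probe sets, the one with the highest mean over all 8 arrays was kept, giving 14884 genes. The number of arrays limits the precision.

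The groups were compared on the log2 scale with limma 3.58.1 (lmFit and eBayes, R 4.3.3) over all genes with Benjamini-Hochberg adjustment and a threshold of 0.05, checked on simulated data. Exact permutation tests over arrays were two-sided, and 4 against 4 arrays cannot give a p below 0.0286. The members and gene lists were chosen with earlier results of these data known, and the paralogue pairs and promoter motifs after the values were seen, so they are described and not tested as sets. Values on every array are given for members at an unadjusted p under 0.05 and for the highest and lowest log2 fold change in each role. Promoter sequences are RefSeq's. The main fit did not pair arrays by replicate number. The correlation of the deviations of same-numbered arrays ran from -0.037 to 0.062, which cannot settle whether they shared a batch. Alternatives covered scaling, a filter on dim genes, the variance prior, array weights, the choice of probe set, the replicate block and leaving out each array. Figures were drawn with matplotlib 3.10.9.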

Additional observations from a re-analysis of the deposited data

Results flagged for a closer look

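In 2 of 66 groups of 4 arrays tested for a member, 1 array stood far from the other 3 by Dixon's gap, the distance to the nearest array divided by the range of the group, which was above the critical value. Chance gives about 1 in 20, so this number of flags is no more than chance would give. CDC25A measured 6.39 on shCD39 array 4, with the next value of that group at 5.83 (gap ratio 0.840). CDC25B measured 6.09 on shCD39 array 1, with the next value at 5.88 (gap ratio 0.879).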

How the results depend on the processing

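With all arrays, 14 genes passed the limma threshold, 7 in each direction. The number was 5 after quantile normalization (all higher in shCD39 cells), 24 with dim genes removed (mean under 3.139), 22 with an intensity trend and robust prior, and 124 with array weights (37 higher and 87 lower). It was 10 after cyclic loess (7 higher and 3 lower). Leaving out 1 array gave 0 to 423 genes. The number was 423 without shCD39 array 4 and 0 without shCTRL array 1, where 1574 genes had an unadjusted p under 0.05. It was 48 without shCTRL array 4, and 6, 5 and 4 without shCD39 arrays 1, 2 and 3. It was 5 and 3 without shCTRL arrays 2 and 3. Members past the threshold numbered 0 in the main setting, 1 with array weights, 0 to 8 with 1 array left out, and 0 under the other alternatives. The replicate number as a block left 6 genes, all higher, and 0 members. An array followed its own number best only for shCD39 array 3 and shCTRL array 4. No pairing was read from the numbers, though so few arrays cannot show that none existed. The member median stayed between -0.37 and -0.24 under all alternatives run.

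Of 511 alternative values for the 32 members with values on every array, 490 kept direction and side of the threshold, 9 became stronger, 0 weaker and 12 changed sign. CCNE2 gave 0.023 after quantile normalization and 0.019 after cyclic loess, and -0.18 to 0.031 with 1 array left out. TFDP2 gave 0.0076 after quantile normalization and -0.16 to 0.029 with 1 array left out. With 1 array left out, CDKN2A ranged from -0.020 to 0.14 and E2F7 from -0.051 to 0.22. The cause was not tested. CDK9 changed sign after median centring (-0.0048). CDKN2A and ENTPD1 had levels near the array medians.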
